A study of Homo sapiens with 2 samples.

Results

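*UCHL1*, *UCHL3*, *UCHL5*, and *BAP1*, which encode the ubiquitin C-terminal hydrolases, were analyzed in single HCT116 cells treated with decitabine (DAC) or mock-treated. These 4 genes were found by their gene names among the 33538 genes listed in both count tables. *UCHL1* was chosen by its UMI counts in these same libraries, so its difference between them is a description and not a finding, while the other 3 genes were taken as the rest of its family. HCT116 is an established line of human colon cancer cells, and DAC is an inhibitor of DNA methyltransferases that lowers DNA methylation as cells divide. The DAC-treated cells were exposed to 2 additions of 0.5 μM DAC, which fell on days 1 and 3 after seeding, and the drug was withdrawn by a medium change on day 5. Both cultures were grown in McCoy's medium with serum and sampled on day 7. Each condition was 1 single-cell library of this line, so that no test between conditions was possible, and differences between the cultures or library preparations cannot be told apart from DAC.

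Ubiquitin C-terminal hydrolases are cysteine proteases that cleave ubiquitin from the carboxyl end of small peptides or from proteins. UCHL1 is abundant in neurons and is used as a marker of neurons and neuroendocrine cells, and its promoter CpG island is known to be methylated in colorectal and other cancers. UCHL3 also cleaves the ubiquitin-like protein NEDD8, UCHL5 acts on the proteasome and in the INO80 chromatin remodeling complex, and BAP1 is a nuclear tumor suppressor that removes ubiquitin from histone H2A.

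Unique molecular identifiers (UMIs, 1 for each captured transcript molecule) numbered 49911689 over 1783 mock-treated cells and 59046165 over 1751 DAC-treated cells. The median was 27899 UMIs per mock-treated cell and 35340 UMIs per DAC-treated cell, and the cells ranged from about 500 to 148446 UMIs. A mitochondrial share above 50% was found in 311 mock-treated and 319 DAC-treated cells, and 12 barcodes were present in both libraries. Of 8 listed colon epithelial genes, 7 had at least 100 UMIs. *KRT18*, *KRT19*, and *KRT8* had between 54580 and 252746 UMIs in either library, *EPCAM* had 17419 in mock-treated and 13099 in DAC-treated cells, and *CDH1* 1152 and 1248. *CDX2* had 438 and 762 UMIs, *KRT20* 27 and 599, and *VIL1* 37 and 62. Of 10 markers of other cell types, the collagen gene *COL1A1* had 533 and 1112 UMIs, in 22.9% and 33.3% of the cells, and the other 9 had at most 6 UMIs in mock-treated and 62 in DAC-treated cells, with *PTPRC*, *CD3E*, *COL1A2*, *PECAM1*, and *HBB* at 0 in mock-treated cells. The part of these markers in the results was not tested. Levels are given as counts per 1000000 UMIs of the library (CPM). Because a UMI was counted near the 3′ end of a transcript, 1 molecule gives at most 1 UMI whatever its length, and levels were not divided by length. Intervals are at the 95% level and cover counting error only.

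On hg38, *UCHL1* (ENSG00000154277) lies on the plus strand of chromosome 4 from 41256413 to 41268455, with 9 exons in its canonical transcript and a protein of 223 amino acids. *UCHL3* (ENSG00000118939) lies on the plus strand of chromosome 13 from 75549483 to 75606020 and encodes 230 amino acids. *UCHL5* (ENSG00000116750) lies on the minus strand of chromosome 1 from 193012250 to 193060080 and encodes 328 amino acids. *BAP1* (ENSG00000163930), on the minus strand of chromosome 3 from 52401008 to 52410008, is the longest protein of the family with 729 amino acids. *UCHL3* and *UCHL5* each overlap 1 small annotated transcript on the same strand, and *UCHL1* and *BAP1* overlap none.

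Since DAC lowers the methylation of CpG sites, the 250 bases before the canonical start are shown. They are given for *UCHL1*, which had 1 UMI in mock-treated cells, and for its expressed relatives *UCHL3* and *UCHL5*. The sequences are from RefSeq on GRCh38.p14, 5′ to 3′ on the strand of the gene, and every CpG site is in capitals. RefSeq windows matched 3 of the 4 genes, not *BAP1*. They lie at chr4:41256678-41256927, chr13:75549541-75549790, and chr1:193059361-193059610.
UCHL1: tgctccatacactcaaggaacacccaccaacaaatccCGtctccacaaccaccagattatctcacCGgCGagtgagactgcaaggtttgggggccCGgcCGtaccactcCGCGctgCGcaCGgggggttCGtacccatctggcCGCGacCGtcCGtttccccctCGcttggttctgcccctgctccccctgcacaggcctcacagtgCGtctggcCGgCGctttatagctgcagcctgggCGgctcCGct
UCHL3: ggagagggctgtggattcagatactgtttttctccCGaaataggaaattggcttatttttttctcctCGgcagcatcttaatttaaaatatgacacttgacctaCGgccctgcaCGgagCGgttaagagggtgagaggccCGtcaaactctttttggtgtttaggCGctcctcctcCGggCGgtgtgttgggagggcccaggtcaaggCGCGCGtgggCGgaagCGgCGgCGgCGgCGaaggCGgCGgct
UCHL5: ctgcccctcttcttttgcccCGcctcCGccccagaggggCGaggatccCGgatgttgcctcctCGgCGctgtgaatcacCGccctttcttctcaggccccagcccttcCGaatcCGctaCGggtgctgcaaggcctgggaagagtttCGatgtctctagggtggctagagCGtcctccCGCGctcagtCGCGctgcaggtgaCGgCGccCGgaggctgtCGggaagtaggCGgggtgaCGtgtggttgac

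The window of *UCHL1* held 20 CpG sites, that of *UCHL3* also 20, and that of *UCHL5* 22. Over 34941 windows of the same length, the median was 11 CpG sites, with quartiles of 3 and 23, and 67.6% of the windows had fewer than 20. The number of CpG sites therefore did not set *UCHL1* apart from its relatives. The GC content was 64.4% for *UCHL1*, 56.8% for *UCHL3*, and 66.0% for *UCHL5*. The letters GGGCGG, the core of the GC box, were present on either strand in all 3 windows and in 42.5% of all windows. TATAAA on either strand was present in the window of *UCHL1*, absent from those of the other two, and present in 10.8% of all windows. Methylation of these sites was not analyzed here.

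*UCHL1* had 1 UMI in the mock-treated library and 5793 UMIs in the DAC-treated library. Its level was 0.0200 CPM (95% confidence interval 0.000507 to 0.112) in mock-treated cells and 98.1 CPM (95.6 to 100.7) in DAC-treated cells. The ratio of the levels was 4897, with an interval from 879 to 193447 that is wide because of the count of 1. This UMI was in a cell with 41452 UMIs, whose barcode was not among those present in both libraries. By UMIs, *UCHL1* was the gene of rank 1337 among the 24557 genes detected in the DAC-treated library.

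*UCHL3* had 3136 UMIs in mock-treated and 3463 UMIs in DAC-treated cells, which was 62.8 CPM (60.7 to 65.1) and 58.6 CPM (56.7 to 60.6). *UCHL5* had 2984 and 3039 UMIs, or 59.8 CPM (57.7 to 62.0) and 51.5 CPM (49.7 to 53.3). The ratio of DAC- to mock-treated cells was 0.933 (0.889 to 0.980) for *UCHL3* and 0.861 (0.818 to 0.906) for *UCHL5*. Both relatives were thus expressed in both libraries at levels that differed by less than 1.5-fold, and the sign of the *UCHL3* difference changed when each cell was weighted alike, from -0.10 to 0.10 on the log2 scale.

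*BAP1* had 480 UMIs (438 to 525) in mock-treated and 1246 UMIs (1178 to 1317) in DAC-treated cells. Its level was 9.62 CPM (8.78 to 10.5) and 21.1 CPM (19.9 to 22.3), a ratio of 2.19 (1.97 to 2.44). *BAP1* was therefore the relative with the larger difference, in the direction of *UCHL1*. Among the 12815 genes with at least 100 UMIs in the library with the higher level, 16.4% were 2-fold or more higher and 6.59% were 2-fold or more lower in DAC-treated cells, and 86.7% had a lower ratio than *BAP1*. Of the family, 2 of 4 genes were 2-fold or more higher and none lower, and the same 2 were 1.5-fold or more higher, as were 31.3% of all genes, while 13.7% were 1.5-fold or more lower. Since *UCHL1* was chosen by this contrast, nothing is read from that count. The median log2 ratio of all genes was 0.25. With median-of-ratios scaling, which lowers every log2 ratio by 0.24, *BAP1* was at 0.90 and below 2-fold, *UCHL3* at -0.34, and *UCHL5* at -0.45.

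Summed over *UCHL3*, *UCHL5*, and *BAP1*, the level was 132.2 CPM in mock-treated and 131.2 CPM in DAC-treated cells. With *UCHL1* included, the family had 132.3 CPM in mock-treated and 229.3 CPM in DAC-treated cells, and *UCHL1* made up 42.8% of the family's UMIs after DAC. Scaled by total UMIs, the summed level of the 3 relatives differed little because *BAP1* was higher and the other 2 were lower in DAC-treated cells. This depends on the scaling, since median-of-ratios scaling lowers every log2 ratio by 0.24. The sign of the *UCHL3* difference also changed with the weighting of cells.

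**Figure D1:**
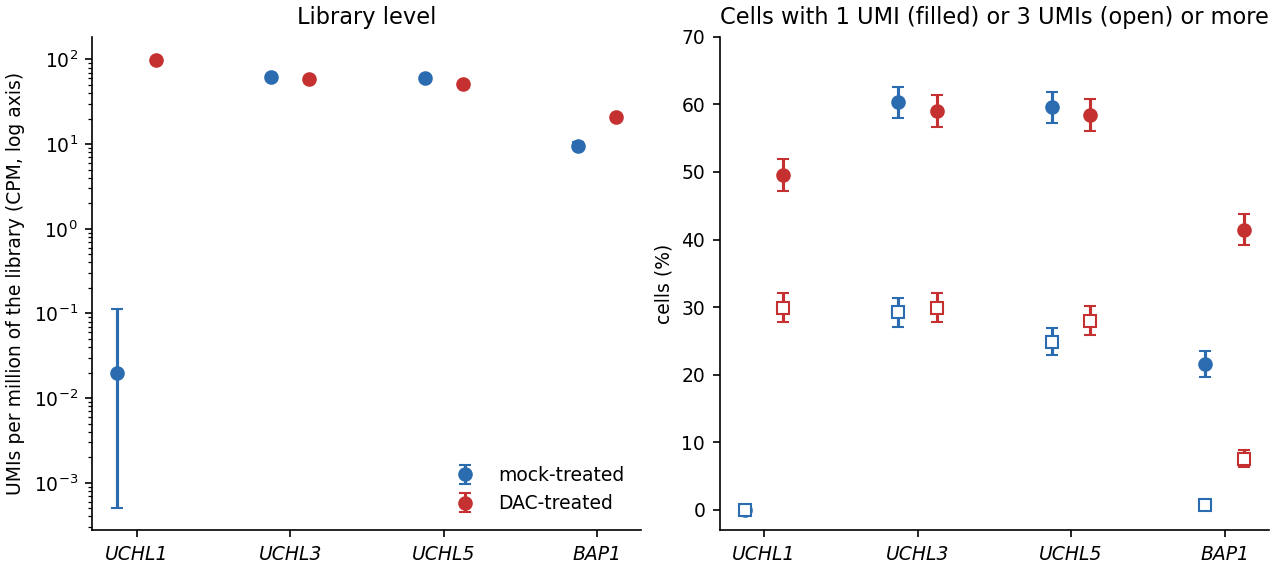
Left, level of the 4 genes in CPM on a log axis, and right, percent of cells with at least 1 UMI (filled circles) or 3 UMIs (open squares), in mock-treated (blue) and DAC-treated (red) cells. Bars are 95% counting intervals of 1 library each. *UCHL1* goes from 0.0200 to 98.1 CPM and *BAP1* from 9.62 to 21.1 CPM, while *UCHL3* and *UCHL5* stay between 51.5 and 62.8 CPM.

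At least 1 UMI of *UCHL1* was present in 867 DAC-treated cells (49.5%, 47.1 to 51.9%) and in 1 mock-treated cell (0.0561%, 0.00142 to 0.312%). *UCHL3* was detected in 1076 mock-treated cells (60.3%, 58.0 to 62.6%) and 1033 DAC-treated cells (59.0%, 56.6 to 61.3%). *UCHL5* was detected in 59.6% (57.2 to 61.9%) and 58.4% (56.1 to 60.7%) of the cells. *BAP1* was detected in 385 mock-treated cells (21.6%, 19.7 to 23.6%) and 726 DAC-treated cells (41.5%, 39.1 to 43.8%). These intervals cover counting error within 1 library each, and nothing is read from whether they overlap.

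At the threshold of 3 UMIs, which the study uses for upregulation, 524 DAC-treated cells (29.9%, 27.8 to 32.1%) had *UCHL1*, and 0 of 1783 mock-treated cells did, a count that leaves room for 0.207% of cells with 3 UMIs at most. Of the 14099 genes with a UMI and at most 2 UMIs in any mock-treated cell, 19.7% reached 3 UMIs in at least 1 DAC-treated cell and 0.546% in 100 or more DAC-treated cells. Only 4 of these genes reached it in more cells than *UCHL1*, which belongs to this set by its choice. *UCHL3* had 3 UMIs or more in 521 mock-treated and 524 DAC-treated cells, so that the number of DAC-treated cells at this threshold was the same for *UCHL1* and for *UCHL3*. *BAP1* had 3 UMIs or more in 0.673% (0.348 to 1.17%) of mock-treated and 7.54% (6.35 to 8.88%) of DAC-treated cells.

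The distribution over cells differed between *UCHL1* and its relatives. In DAC-treated cells, 884 cells had no UMI of *UCHL1*, 241 had 1 UMI, and 626 had 2 or more. Of these, 182 had 3 to 5 UMIs, 167 had 6 to 10, 117 had 11 to 20, and 58 had 21 or more. The highest count was 63 UMIs of *UCHL1* in a cell, in comparison with 18 of *UCHL3*, 12 of *UCHL5*, and 7 of *BAP1*. In mock-treated cells the highest counts were 15, 17, and 5 for these relatives. The median over the cells with a UMI was 4 UMIs for *UCHL1*, 3 for *UCHL3*, 2 for *UCHL5*, and 1 for *BAP1* after DAC.

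**Figure D2:**
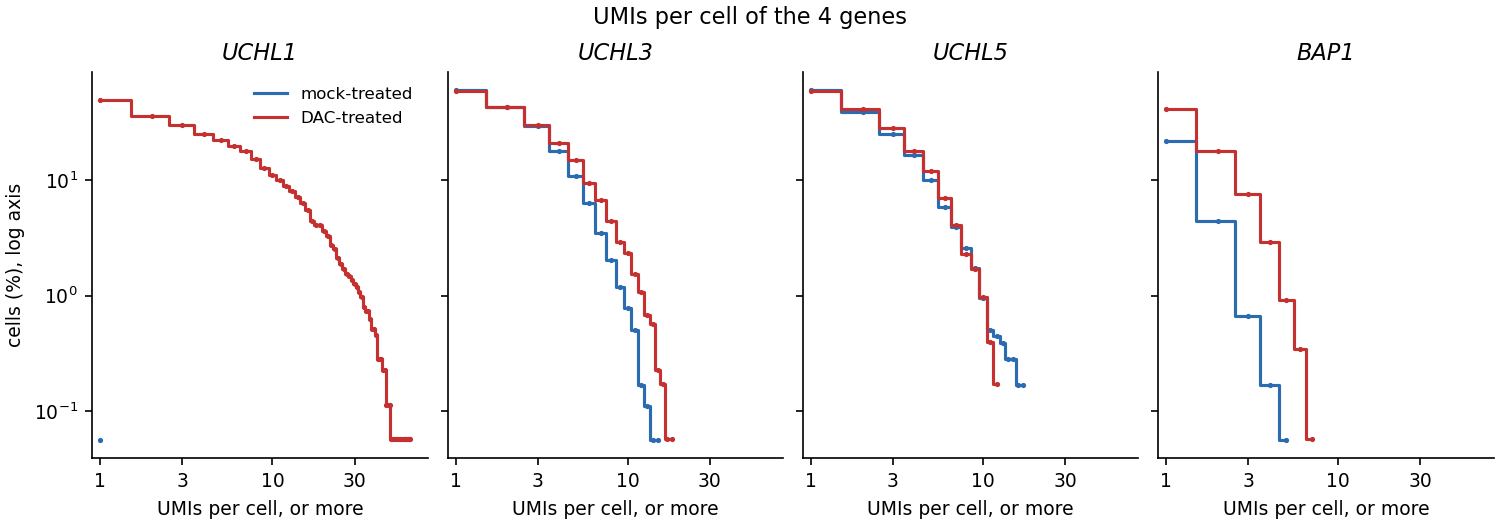
Percent of cells (log axis) with at least the number of UMIs on the horizontal axis (log axis), for each gene in mock-treated (blue) and DAC-treated (red) cells. The curve of *UCHL1* reaches 63 UMIs and is a lone point at 1 UMI in mock-treated cells, the curves of *UCHL3* and *UCHL5* start between 58.4% and 60.3% in both libraries, and that of *BAP1* is shifted upward after DAC.

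In DAC-treated cells, the highest cells held a larger share of the UMIs for *UCHL1* than for its relatives. The 176 DAC-treated cells with the highest counts of each gene, 10% of all, held 58.2% of the UMIs of *UCHL1*, 44.8% of those of *BAP1*, 40.7% of those of *UCHL3*, and 38.6% of those of *UCHL5*. In mock-treated cells, the highest 179 cells held 57.1% for *BAP1*, 36.9% for *UCHL3*, and 40.3% for *UCHL5*. A share near that of *UCHL1* was thus also held for *BAP1* at its low level in mock-treated cells, and the measure depends on level. If each DAC-treated cell had contained *UCHL1* in proportion to its total UMIs, 431 cells would have lacked it, and the 884 cells observed were 2.05 times as many. For *UCHL3*, *UCHL5*, and *BAP1*, this ratio in DAC-treated cells was 1.28, 1.20, and 1.05, and in mock-treated cells it was 1.32, 1.29, and 1.01. Free RNA in droplets was not measured, and no cell type without *UCHL1* was present in the DAC-treated library to give its level.

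To compare cells at an equal depth, 10000 UMIs were drawn from each cell. This left 1388 mock-treated and 1293 DAC-treated cells and left out 395 and 458 cells with fewer UMIs. Cells rich in mitochondrial UMIs were kept, and 1298 and 1120 of the cells at this depth had at most 50% mitochondrial UMIs. The part of the mitochondria-rich cells in the shares and the variation at this depth was not tested. *UCHL1* was then detected in 38.8% (36.2 to 41.5%) of the DAC-treated cells and *UCHL3* in 38.5% (35.9 to 41.2%), while 3 UMIs or more were present in 12.3% (10.6 to 14.2%) for *UCHL1* and in 2.47% (1.70 to 3.48%) for *UCHL3*. At the same share of detecting cells, high counts were thus more frequent for *UCHL1*. *BAP1* was detected in 7.49% (6.16 to 9.01%) of mock-treated and 18.3% (16.2 to 20.5%) of DAC-treated cells at this depth. *UCHL5* was detected in 40.4% (37.8 to 43.1%) of mock-treated and 36.5% (33.9 to 39.2%) of DAC-treated cells.

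Cell-to-cell variation was measured at this depth as the squared coefficient of variation beyond that of Poisson sampling, which is 0 when all cells have the same level. It was 1.76 for *UCHL1* in DAC-treated cells, above 92.0% of the 10050 genes with a mean of at least 0.05 UMI, whose median was 0.376. It was 0.301 for *UCHL3*, 0.348 for *UCHL5*, and 0.0587 for *BAP1*. In mock-treated cells, *UCHL3* had 0.275 and *UCHL5* 0.404, and the median of 9544 genes was 0.181. *UCHL3* and *UCHL5* were thus below the median of the genes in DAC-treated cells and above it in mock-treated cells. Cells rich in mitochondrial UMIs were kept in both libraries, so that nothing is read from this difference between the libraries. At its higher level in DAC-treated cells, *BAP1* was above 10.1% of the genes, and in mock-treated cells, with 105 UMIs, it was at -0.739. At a depth of 1007 UMIs, where few UMIs were left, *UCHL1* was at 2.14, above 94.8% of the genes, and *UCHL3* and *UCHL5* were again below the median in DAC-treated cells. The value of *UCHL3* in mock-treated cells turned to -0.989 from 84 UMIs, and those of *BAP1* turned to 5.27 from 23 UMIs in mock-treated and 5.04 from 32 UMIs in DAC-treated cells.

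Detection was higher in deeper cells for each of the 4 genes in the DAC-treated library. The groups of cells by depth were made within each library, and the group with the fewest UMIs had a median of 7375 UMIs in mock-treated and 2179 UMIs in DAC-treated cells, so that its shares are not compared between libraries. In 3 equal groups of DAC-treated cells ordered by depth, *UCHL1* was detected in 17.3% (14.3 to 20.6%) of the group with the fewest UMIs, 58.2% (54.1 to 62.3%) of the middle group, and 73.1% (69.3 to 76.6%) of the group with the most. In that last group *UCHL3* was detected in 548 of 583 cells (91.7 to 95.8%), *UCHL5* in 91.6% (89.0 to 93.7%), and *BAP1* in 68.8% (64.8 to 72.5%) of the cells. The level of *UCHL1* in this group was 107.9 CPM and that of *BAP1* 21.4 CPM. *UCHL1* was therefore detected in about as many of the deepest cells as *BAP1*, although its level was higher, and in fewer of them than *UCHL3* at 65.7 CPM.

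**Figure D3:**
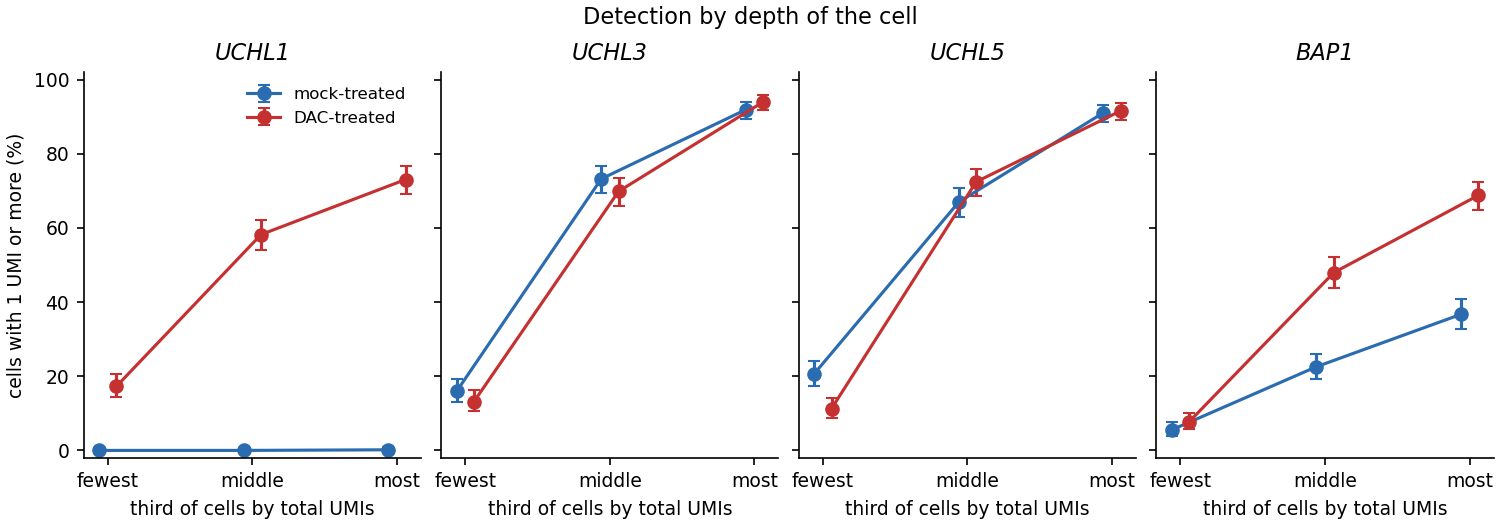
Percent of cells with at least 1 UMI of each gene in 3 groups of mock-treated (blue) and DAC-treated (red) cells, ordered by total UMIs, with 95% binomial intervals. In DAC-treated cells with the most UMIs, *UCHL1* reaches 73.1%, below *UCHL5* at 91.6%, and the groups are not matched in depth between libraries.

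In DAC-treated cells with more than 50% mitochondrial UMIs, *UCHL1* was at 29.0 CPM (23.9 to 34.7) and was detected in 23.8% of the cells. *UCHL3* was at 10.7 CPM, *UCHL5* at 21.5 CPM, and *BAP1* at 12.7 CPM in these cells. In the 1120 DAC-treated cells with at least 10000 UMIs and at most 50% mitochondrial UMIs, the levels were 102.8 CPM for *UCHL1*, 61.9 CPM for *UCHL3*, 53.6 CPM for *UCHL5*, and 21.7 CPM for *BAP1*. Since mitochondrial UMIs are part of the total, the CPM of any nuclear gene is lower in cells rich in them by construction, and nothing is read from this difference. The *BAP1* level was higher in DAC-treated cells than in mock-treated cells within both classes, with 12.7 CPM (9.48 to 16.7) against 5.28 CPM (2.81 to 9.03), and 21.7 CPM (20.4 to 22.9) against 9.79 CPM (8.91 to 10.7).

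Whether the relatives varied with *UCHL1* was examined in these 1120 cells. *BAP1* was at 21.7 CPM (19.5 to 24.1) in the 376 cells without a UMI of *UCHL1*, 21.6 CPM in the 238 cells with 1 or 2 UMIs, and 21.7 CPM (19.9 to 23.5) in the 506 cells with 3 or more. *UCHL5* was at 52.9, 54.0, and 54.0 CPM, and *UCHL3* at 59.2 CPM (55.6 to 63.0), 59.5 CPM (55.2 to 64.2), and 64.7 CPM (61.6 to 67.8). The intervals of the cells without *UCHL1* and with 3 UMIs or more overlapped for each relative, which does not show that the levels were equal. Each relative was detected in more of the cells with 3 UMIs or more of *UCHL1*. The shares without and with them were 83.2% and 88.3% for *UCHL3*, 79.5% and 86.6% for *UCHL5*, and 56.1% and 62.8% for *BAP1*. The median depth also differed, with 43080 UMIs in the cells without *UCHL1* and 50052 UMIs in those with 3 UMIs or more. Pearson correlations between *UCHL1* and its relatives over the cells were 0.035, 0.030, and 0.030, and that between *UCHL3* and *UCHL5* was 0.024, in comparison with 0.093 in mock-treated cells. At the equal depth of 10000 UMIs, 208 cells had both *UCHL1* and *UCHL3*, and the product of their shares gave 193. Correlations this weak in sparse counts are no finding.

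The 5 genes whose levels were most like those of *UCHL1* over these cells were *DCAF4L1*, *PSMB3*, *CKS1B*, *PSMB6*, and *STMN1*, among 8555 genes with at least 500 UMIs. Their Pearson correlations of log-transformed levels were low, 0.210 for *DCAF4L1* and between 0.172 and 0.183 for the others, and the 99th percentile of all genes was 0.124. *PSMB3* and *PSMB6* encode subunits of the proteasome core, *CKS1B* a cofactor of the ubiquitin ligase that degrades cell cycle inhibitors, and *STMN1* a microtubule regulator. *DCAF4L1* had 23 UMIs in mock-treated and 1206 UMIs in DAC-treated cells, and is named for its similarity to DCAF4, a substrate receptor of a cullin ubiquitin ligase. Among the 1120 cells, *DCAF4L1* was at 14.2 CPM (12.5 to 16.2) in those without a UMI of *UCHL1* and 26.6 CPM (24.6 to 28.6) in those with 3 UMIs or more, a difference that its choice by correlation favors. At the equal depth, 115 cells had both genes, 1.38 times the 83.1 cells given by the product of their shares.

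*DCAF4L1* is also a neighbor of *UCHL1*, with its start 725 kb away on chromosome 4. Of the 22 other listed genes that start within 1 Mb of the annotated start of *UCHL1*, 12 had a UMI in either library and 6 had at least 100 UMIs. Only *DCAF4L1* of these 6 was 2-fold or more higher in DAC-treated cells (16.4% of all genes), with a ratio of 44.3 (29.4 to 70.2), and none was 2-fold or more lower (6.59% of all genes). The nearest genes with at least 100 UMIs on either side were within 1.5-fold. *APBB2*, which encodes an adaptor protein and starts 39.7 kb before *UCHL1*, had 1130 and 1213 UMIs in mock- and DAC-treated cells, a ratio of 0.907 (0.836 to 0.985), and *LIMCH1*, an actin-associated protein gene 103 kb after it, had 260 and 327 UMIs, a ratio of 1.06 (0.901 to 1.26). *UCHL1-AS1*, on the opposite strand at the start of *UCHL1*, had no UMI in either library, which says nothing of RNA that was not captured. *NSUN7* and *BEND4* had 0 UMIs in mock-treated cells and 12 and 15 UMIs in DAC-treated cells. Between *UCHL1* and *DCAF4L1*, the genes with at least 100 UMIs were *LIMCH1* and *TMEM33*, the latter with 1732 and 2926 UMIs and a ratio of 1.43 (1.35 to 1.52). *SLC30A9*, a zinc transporter gene that starts 734 kb from *UCHL1* and next to *DCAF4L1*, was lower, with 1237 and 911 UMIs and a ratio of 0.623 (0.571 to 0.679). *RBM47*, an RNA-binding protein gene 626 kb before *UCHL1*, had 579 and 654 UMIs. *DCAF4L1* reached 100 UMIs only in the DAC-treated library, and *NSUN7* and *BEND4* did not reach it, so that nothing is read from the count over the window.

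**Figure D4:**
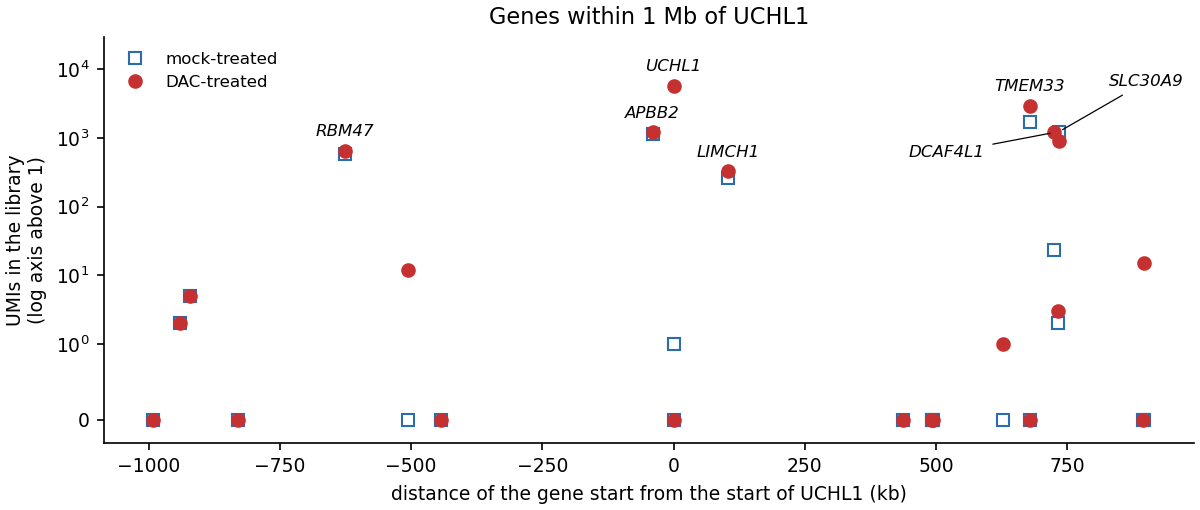
UMIs in the mock-treated (blue squares) and DAC-treated (red circles) library of *UCHL1* and the 22 listed genes within 1 Mb, against the distance between gene starts in kb. The vertical axis is a log axis above 1. *UCHL1* goes from 1 to 5793 UMIs and *DCAF4L1*, at 725 kb, from 23 to 1206 UMIs, while *APBB2* and *LIMCH1* have similar counts in both libraries.

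The protein partners and substrates of the family were compared as lists. BAP1 works in a complex with ASXL proteins and binds the cofactor HCFC1 and the enzyme OGT. Of 10 genes of this complex, 9 had at least 100 UMIs, of which 1 (11.1%) was 2-fold or more higher, in comparison with 16.4% of all genes, and none was 2-fold or more lower, except for *OGT* with median-of-ratios scaling. The median log2 ratio was 0.08, below the 0.25 of all genes. *HCFC1* had 904 and 2551 UMIs in mock- and DAC-treated cells, a ratio of 2.39 (2.21 to 2.58), and *KDM1B*, a histone demethylase gene, had a ratio of 1.61 (1.44 to 1.81). *OGT*, the O-GlcNAc transferase gene, had 1663 and 1156 UMIs, a ratio of 0.588 (0.545 to 0.634), and *MBD6* had a ratio of 0.659 (0.578 to 0.751). The scaffold gene *ASXL1* was at 1.52 (1.42 to 1.63) and the transcription factor gene *FOXK2* at 1.28 (1.21 to 1.35). The genes of the BAP1 complex therefore differed in both directions, with *HCFC1* at a ratio near that of *BAP1*.

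The ligases that add the ubiquitin BAP1 removes, of Polycomb repressive complex 1, had 8 listed genes, and none was 2-fold or more higher or lower, in comparison with 16.4% and 6.59% of all genes. With median-of-ratios scaling, 1 of them, *PCGF1*, was 2-fold or more lower. Their log2 ratios had a median of 0.28 and ranged from -0.82 for *PCGF1* to 0.62 for *BMI1*. *PCGF2* was at 0.662 (0.618 to 0.709) and *PCGF3* at 1.48 (1.36 to 1.61) as ratios of levels.

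UCHL5 is held on the proteasome by ADRM1, its receptor in the regulatory particle. *ADRM1* had 7391 and 17844 UMIs in mock- and DAC-treated cells, a ratio of 2.04 (1.99 to 2.10). The regulatory particle had 19 listed genes. Of these, 5 (26.3%) were 2-fold or more higher and 15 (78.9%) were 1.5-fold or more higher, in comparison with 16.4% and 31.3% of all genes, and the median log2 ratio was 0.83, in comparison with 0.25 over all genes. *PSMD2*, a scaffold subunit, had 7732 and 21118 UMIs, a ratio of 2.31 (2.25 to 2.37), and *PSMD13* had a ratio of 2.11 (2.04 to 2.19). The smallest ratios were 1.26 (1.22 to 1.30) for *PSMD4*, a ubiquitin receptor, and 1.37 (1.34 to 1.41) for *SEM1*. The most abundant genes, *PSMD8* and the ATPase gene *PSMC5*, were at 1.76 (1.73 to 1.80) and 1.86 (1.81 to 1.90). The list median stayed above 0 with each scaling, at 0.59 with median-of-ratios scaling, by which none was 2-fold or more higher, and at 1.01 with the mean of per-cell levels, by which 11 were. Of all 12815 genes, 1503 and 2417 were 2-fold or more higher with these scalings, and their medians were 0.01 and 0.29. *UCHL5* itself was at a ratio of 0.861.

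UCHL5 also binds NFRKB in the INO80 complex. Of 13 listed genes of the complex, *UCHL5* included, 12 had at least 100 UMIs and 1 (8.33%) was 2-fold or more higher, in comparison with 16.4% of all genes. This was *TFPT*, with 248 and 1030 UMIs and a ratio of 3.51 (3.05 to 4.05), followed by *INO80C* with 1.69 (1.56 to 1.82). *NFRKB* had a ratio of 1.20 (1.06 to 1.36), and the abundant ATPase genes *RUVBL1* and *RUVBL2* were at 0.989 (0.956 to 1.02) and 1.05 (1.01 to 1.09). The median log2 ratio was 0.26, as over all genes.

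In the NEDD8 cycle, whose precursor UCHL3 can process, *NEDD8* had 9678 and 22039 UMIs, a ratio of 1.92 (1.88 to 1.97), and the conjugating enzyme genes *UBE2M* and *UBE2F* were at 1.43 (1.40 to 1.47) and 1.45 (1.36 to 1.54). *SENP8*, the other protease of the NEDD8 precursor, was at 0.790 (0.637 to 0.978), and *UBA3*, of the activating enzyme, at 0.905 (0.826 to 0.991). None of the 6 genes of this list was 2-fold or more higher or lower, in comparison with 16.4% and 6.59% of all genes.

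Of 78 other deubiquitinases and related proteases, 70 had at least 100 UMIs, and 5 (7.14%) were 2-fold or more higher and 1 (1.43%) was 2-fold or more lower, in comparison with 16.4% and 6.59% of all genes. The number higher was 3 with median-of-ratios scaling and 10 with the mean of per-cell levels, by which 2417 of the 12815 genes were higher, so that it depends on the scaling. Of the 5 genes, *TNFAIP3* and *MINDY1* reached 100 UMIs only in the DAC-treated library, where they were higher, and nothing is read from this number. At 1.5-fold or more, 15 genes (21.4%) were higher and 3 were lower, in comparison with 31.3% and 13.7% of all genes. The other 52 genes were within 1.5-fold, and the median log2 ratio was 0.27. The genes with the highest ratios were *TNFAIP3*, an inhibitor of NF-κB signaling, with 41 and 186 UMIs and a ratio of 3.83 (2.72 to 5.52), and *MINDY1*, with 32 and 131 UMIs and a ratio of 3.46 (2.34 to 5.27). The others were *USP18*, the interferon-induced protease for ISG15, at 3.36 (2.88 to 3.93), *USP31* at 2.18 (1.98 to 2.41), and *JOSD2* at 2.09 (1.97 to 2.22), which are named here after their values were seen. *USP45* was lower, with 703 and 402 UMIs and a ratio of 0.483 (0.427 to 0.547). *EIF3H* and *EIF3F*, translation initiation factors with a related protease fold and the most abundant of the list, were at 0.703 (0.688 to 0.718) and 0.653 (0.636 to 0.672). The testis gene *USP26* had 1 and 49 UMIs, and *USP51* 0 and 15 UMIs, both named after their values were seen. *BAP1* would rank with *USP31* in this list.

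**Figure D5:**
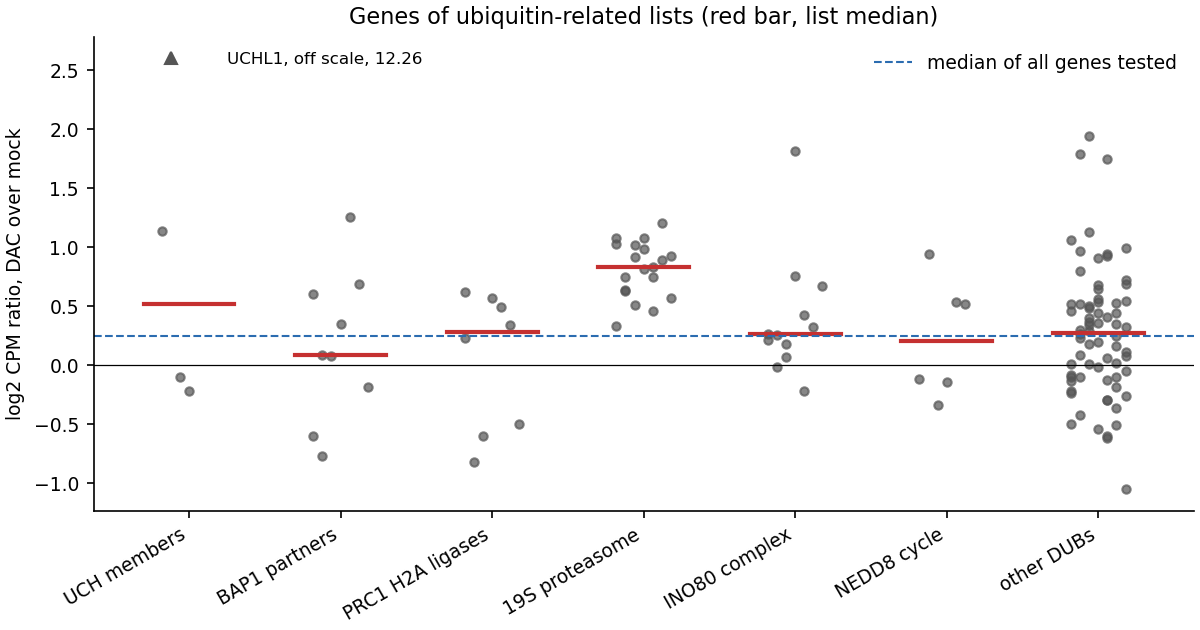
Log2 ratio of levels, DAC-treated over mock-treated, of each gene with at least 100 UMIs in ubiquitin-related lists (points), with the list median (red bar) and the median of all 12815 genes (dashed line, 0.25). *UCHL1* is off the scale at 12.26, the genes of the proteasome regulatory particle have a median of 0.83, and the other deubiquitinases (DUBs) have a median of 0.27.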

How the data were processed

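Single-cell libraries of DAC- and mock-treated HCT116 cells, 1 of each, were analyzed. The authors prepared them with a Chromium 3′ kit, used Cell Ranger with the hg38 genome, and deposited the UMI counts of every gene in each cell as raw values. The annotation release is not given in the sources used here. All deposited cells were used, with 49911689 and 59046165 UMIs, and doublets were not called, since a doublet of 1 cell line carries no marker. Instead, the 5% of cells with the most UMIs were left out as an alternative.

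UMIs were summed over a library and scaled to CPM. Exact Poisson, Clopper-Pearson, and conditional binomial intervals were computed in Python 3.11.15 with scipy 1.17.1, pandas 2.3.3, and numpy 2.4.6, with plots by matplotlib 3.10.9. A count of 0 entered a ratio as 3 counts over the library. Gene positions are from GENCODE release 44 on hg38, matched by Ensembl identifier, since 24 gene names were repeated. With 1 library per condition, no test was made, and a call is a fold of 2 or 1.5. The members and lists were chosen with earlier results of these data known. Named from each reported list were the 2 most abundant genes and those with the 2 highest and 2 lowest ratios among genes with at least 100 UMIs. Also named were the cell type markers given in the opening, genes within 1 Mb of *UCHL1*, and the 5 genes with the highest correlation with *UCHL1*. *ADRM1* and *NFRKB*, whose proteins bind UCHL5, were named outside this rule, as were the genes said to be named after their values were seen. Alternatives were thinning to 1007 UMIs (the 10th percentile of cells) or 10000 UMIs, filters on cells, and other scalings. The computations were tested on simulated data. Some listed genes are not reported here.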

Additional observations from a re-analysis of the deposited data

How the results depend on the processing

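With 1 library per condition, leaving out a replicate was not possible, and no paired analysis was possible because each condition had 1 library. *UCHL1* and *BAP1* were higher and *UCHL5* was lower in DAC-treated cells under every alternative run, while the direction of *UCHL3* changed under 2 of 6. The interval of *UCHL5* at 1007 UMIs, from -0.72 to 0.27 on the log2 scale, included 0.

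For the log2 ratio, median-of-ratios scaling moved *UCHL3* to -0.34, *UCHL5* to -0.45, and *BAP1* to 0.90. The mean of per-cell CPM reversed *UCHL3* to 0.10 and moved *UCHL5* to -0.10 and *BAP1* to 1.41. Thinning to 1007 UMIs reversed *UCHL3* to 0.24, with an interval from -0.20 to 0.69, and gave 0.57 for *BAP1*, with an interval from -0.24 to 1.41 that includes 0, since few UMIs are left. Thinning to 10000 UMIs gave 1.42 for *BAP1*. The log2 ratio of *UCHL1* was at least 5.71 at 1007 UMIs and at least 8.68 at 10000 UMIs, since no mock-treated UMI was left.

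Shares of cells with a UMI moved with depth by construction. After thinning to 1007 UMIs, they were 0% and 8.33% for *UCHL1*, 5.11% and 5.86% for *UCHL3*, 4.62% and 4.10% for *UCHL5*, and 1.34% and 1.95% for *BAP1*, in mock- and DAC-treated cells. After thinning to 10000 UMIs, they were 0% and 38.8%, 42.3% and 38.5%, 40.4% and 36.5%, and 7.49% and 18.3%. In cells with at least 10000 UMIs and at most 50% mitochondrial UMIs, they were 66.4% of DAC-treated cells for *UCHL1*, 79.5% and 85.6% for *UCHL3*, 76.9% and 83.8% for *UCHL5*, and 28.3% and 59.4% for *BAP1*. Without the 5% of cells with the most UMIs, *BAP1* was detected in 19.6% of the mock library. For *UCHL1* at 3 UMIs or more, the DAC share was 0.195% and 12.3% at these equal depths and 45.2% in the filtered cells, and 35.8% had 2 UMIs or more and 22.3% had 5 UMIs or more.

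The number of genes that were 2-fold or more higher, 2101, became 4756 and 5433 with a minimum of 10 or 4 UMIs in place of 100, and the number 2-fold or more lower, 844, became 1499 and 1835. With median-of-ratios scaling, 1503 genes were higher and 1272 were lower.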

Other observations

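Genes that share the neuronal or neuroendocrine setting in which UCHL1 is used as a marker differed in both directions. Of 22 such genes, 9 had at least 100 UMIs, of which 3 were 2-fold or more higher and 3 were 2-fold or more lower in DAC-treated cells, in comparison with 16.4% and 6.59% of all genes. The 3 higher genes reached 100 UMIs only in the DAC-treated library, so that their number supports nothing, while the 3 lower genes had more than 100 UMIs in both libraries. *RBFOX3* and *PRPH* are named after their values were seen. The neurofilament gene *NEFH* and the intermediate filament gene *INA* had no UMI in mock-treated cells and 1453 and 417 UMIs in DAC-treated cells, so that their levels were at least 409-fold and 117-fold higher with 3 counts over the library as the floor, and the lower limits of their exact 95% intervals, which are wider, were 333 and 95.1. *NEFH* was detected in 421 and *INA* in 219 of the 1751 DAC-treated cells. *RBFOX3*, a splicing factor of mature neurons, had 10 and 113 UMIs. *SYT1*, a synaptic vesicle protein gene, was lower, with 8956 UMIs in mock-treated and 2009 UMIs in DAC-treated cells, a ratio of 0.190 (0.181 to 0.199). *SCG2*, a secretory granule gene, had 1024 and 317 UMIs, and *PRPH*, a peripheral neurofilament gene, 1039 and 428 UMIs. *ENO2*, the neuronal enolase gene, was at a ratio of 1.39 (1.26 to 1.54).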
